A study of Rattus norvegicus with 12 samples.

Results

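The Rnf genes encode proteins with a RING finger, most of them ubiquitin ligases, and 72 of them were measured here in the prefrontal cortex of young female rats. They were taken as every probe, control probes apart, whose gene name in the scanner files begins with Rnf followed by a digit. That gave 89 probes of the 30367 on the array and 72 genes of 26047, with 55 genes on 1 probe each and 17 on 2. The set was selected on the betamethasone minus control difference of Rnf126, which was known from these data to be below 0 when the set was proposed, so the differences of Rnf genes for betamethasone against control are a description. Counts of limma calls in that comparison stand beside the share over all genes, and nothing about the Rnf genes is read from them.

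A RING ligase binds its substrate and a ubiquitin-loaded conjugating enzyme (an E2) at the same time and so directs the transfer of ubiquitin. An E1 enzyme activates ubiquitin, the E2 carries it, and the ligase chooses the target, which is then degraded by the proteasome, moved within the cell or altered in its signalling. In neurons such ligases act on glutamate receptors, axon growth, protein quality control and chromatin.

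The animals were Sprague-Dawley rats, and total RNA of the prefrontal cortex was taken on postnatal day 15, although a separate age field of the labels disagrees. Dams were given 2 injections of betamethasone, a synthetic glucocorticoid, at 0.4 mg/kg each, or of saline, on gestational day 15. Control animals had saline before birth and saline on postnatal day 14. The betamethasone group had betamethasone before birth and saline on postnatal day 14. The betamethasone with ketamine group had betamethasone before birth and ketamine, a blocker of NMDA glutamate receptors, at 35 mg/kg on postnatal day 14. The labels say that ketamine or saline was given to rats with infantile spasms and do not say which samples had them. Each group held 4 biological replicates, whose litters are not named. No group had ketamine without betamethasone, so each ketamine value is a value after betamethasone.

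Each of the 6 two-colour arrays carried 2 animals of 1 group, labelled with Cy3 and Cy5. One slide bore both control arrays and another bore the rest, so for both comparisons with control the slide and the group cannot be told apart. Between 71.4% and 81.5% of spots were well above background, no spot was saturated, and the 2 arrays per group limit the precision. Replicates of a group correlated at 0.974 to 0.998. The array of ketamine samples 1 and 2 stood apart: on the first principal component (43.4% of the variance) they had scores of 54.03 and 52.11, whereas scores of the remaining 10 ran from -19.98 to -6.83. Ketamine results of the Rnf genes and of their role groups are therefore also given without that array where this moved a value by over 1.5 times, turned it or changed a call. Either array left out, the ketamine group is 2 animals on 1 array, so array and treatment cannot be told apart. Without samples 3 and 4, limma called 2286 genes in all for ketamine minus saline and 3082 for betamethasone with ketamine minus control. An Rnf gene said to have passed there is 1 of these, and nothing is read from it. All 9 neuron markers were tested in this tissue, and their summed level (log2) was 17.26 to 17.39 in control, 17.14 to 17.45 after betamethasone and 17.40 to 17.55 with ketamine.

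Of the 72 Rnf genes, 63 were measured well enough to be tested, out of 18599 genes tested in all. Rnf135 was kept only through the ketamine group, where all 4 samples were well above background. Of the 9 others, Rnf17, Rnf148 and Rnf186 were well above background in 0 of 12 samples, Rnf43 and Rnf133 in at most 1 and Rnf44 and Rnf190 (now Marchf10) in 3. Rnf10 and Rnf166 were bright in all 12 samples but lost spots to outlier flags. Rnf10, a ligase studied in neurons, kept 1 control value of 11.99 beside 11.99 to 12.07 after betamethasone and 11.86 to 12.36 with ketamine (log2 intensity). Rnf166 kept 2 betamethasone values, 11.09 and 10.90, above the 4 control values of 9.78 to 10.70. The names are partly old: Rnf219 is now Obi1, and Rnf115 is called Zfp364 on the second slide.

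The median log2 difference (betamethasone minus control) was -0.01 for the Rnf genes and 0.03 for all genes, with 31 Rnf genes higher and 32 lower (56% of all genes were higher). Other scalings moved all genes: the median of all genes was 0.10 with processed signals, 0.08 with array medians, -0.19 with a 75th percentile of background-corrected signals and -0.55 in the deposited value table. The Rnf medians beside these were 0.03, 0.19, -0.08 and -0.53, and 34, 38, 25 and 0 Rnf genes were higher and 29, 25, 38 and 56 lower. Differences above 0 in what follows hold for the reported scaling, since all 56 Rnf genes that the value table covers were below 0 there. The differences ran from -0.98 for Rnf126 to 0.51 for Rnf5, and the next lowest was -0.54 for Rnf224. In 14 of 63 Rnf genes (22.2%) the 4 betamethasone samples did not overlap the 4 control samples, against 18% of all genes, with 9 lower (7.37% of all genes) and 5 higher (10.6% of all genes). After Benjamini-Hochberg adjustment over all genes, limma called 45 genes (0.242%) at 0.05, of which 0 were Rnf genes, and 7 Rnf genes had an unadjusted p under 0.05, against 11.6% of all genes. Nothing is read from these shares, since this comparison served to choose the set. The standard error of an Rnf difference had a median of 0.149.

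**Figure D1:**
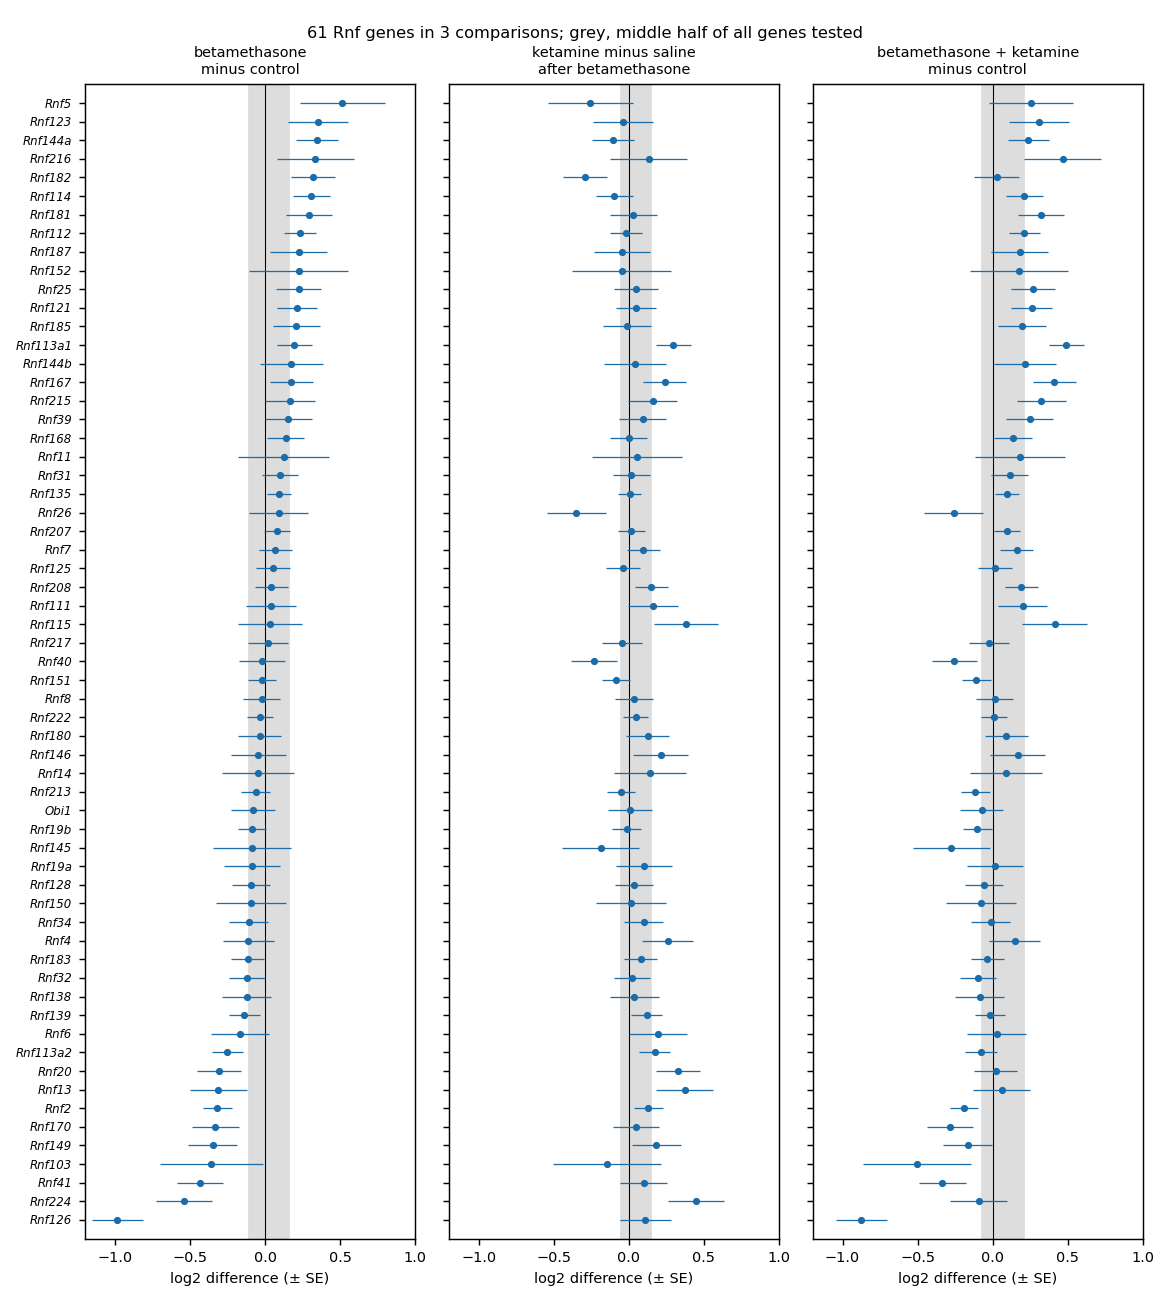
The points are log2 differences of 61 tested Rnf genes, ordered by betamethasone minus control, with bars of 1 standard error and a grey band for the interquartile range of all genes tested. Rnf126 lies lowest in both comparisons with control (-0.98 and -0.88) and at 0.11 in the comparison of ketamine with saline.

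Rnf126 is a cytosolic ligase that the chaperone Bag6 recruits to hydrophobic proteins that failed to reach their membrane. A single 60-base probe measured it, at chr7:11460131-11460190 on the plus strand (rn4). Rnf5, a ligase of the endoplasmic reticulum, stood at the other end of the betamethasone differences, with its probe at chr20:4249692-4249751 on the plus strand (rn4). The sequences of both probes are shown because the extremes of the family each rest on 1 of them.
Rnf126: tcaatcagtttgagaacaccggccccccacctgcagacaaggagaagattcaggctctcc
Rnf5: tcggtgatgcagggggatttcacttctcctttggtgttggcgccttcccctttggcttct

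The log2 intensity of Rnf126 was 12.14, 12.22, 12.41 and 12.03 in the 4 control samples. After betamethasone it was 11.40, 11.12, 11.40 and 10.94, and with ketamine 11.59, 11.47, 11.21 and 11.03. Every control sample lay above every sample of the other groups, and the latter overlapped each other. The lowest control value, 12.03, was above the highest of the other 8, 11.59. The difference for betamethasone minus control was -0.98 (SE 0.17, 4 against 4 samples), which is 1.98-fold lower. Over the 30 alternative ways of processing or leaving out samples it ran from -1.62 to -0.68. On 5 of the 6 arrays the Cy5 sample lay below the Cy3 sample, and each group held both dyes equally. In RNA from whole tissue, fewer cells of a type and less RNA per cell cannot be told apart.

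Betamethasone with ketamine minus control shares the control samples that the choice of the set used, so it is no independent repeat. Its intervals, p-values and passes for Rnf126 are a description. In that comparison the difference of Rnf126 was -0.88 (SE 0.17), 1.83-fold lower, with a 95% interval of -1.25 to -0.50. It missed the threshold, with an adjusted p of 0.106 in limma, and was lower than control in 4 of 4 samples. Without ketamine samples 1 and 2 it was -1.08 (limma adjusted p 0.0132), and without samples 3 and 4 it was -0.67 (limma adjusted p 0.0161). It passed in 6 of 30 alternatives. Ketamine minus saline, which uses no control sample, gave 0.11 for Rnf126, with an interval of -0.27 to 0.49 (limma adjusted p 0.936) and -0.10 without ketamine samples 1 and 2, or 0.31 without samples 3 and 4 (limma adjusted p 0.183).

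Markers of oligodendrocytes were lower beside Rnf126. All 7 of 7 were lower after betamethasone, at a median of -0.66, and 6 of 7 with ketamine, at a median of -0.49, and 0 passed in either. Their summed log2 level was 15.32 to 16.41 in control, 14.44 to 15.68 after betamethasone and 15.004 to 16.11 with ketamine. The ranges of the sum overlapped, and in 2 of the 7 markers the groups did not overlap, in each of these comparisons. Without ketamine samples 1 and 2 the median with ketamine was -0.17, and without samples 3 and 4 it was -0.84. The summed endothelial and mural markers were higher instead, from 12.48 to 13.06 in control to 13.09 to 13.28 after betamethasone and 13.14 to 13.59 with ketamine. After betamethasone 5 of these 6 were higher, 3 with a 75th percentile of background-corrected signals and 1 in the value table, and 0 passed. Summed microglial markers were 14.59 to 14.82 in control, 14.76 to 14.88 after betamethasone and 14.89 to 14.96 with ketamine. Control and ketamine sums did not overlap for microglia, nor for neurons or for endothelial and mural cells, and 63.8% of all genes were higher in that comparison. Marker by marker, these groups did not overlap in 2 of 7 microglial, 1 of 9 neuron and 1 of 6 endothelial and mural markers, against 15.8% of all genes. Summed markers of blood and choroid plexus ran from 16.09 to 16.80, 16.02 to 17.60 and 12.27 to 17.25 in these groups. Spots left out as outliers add nothing to any of these sums, so the 12.27 cannot be told from a missing bright spot. The width of that ketamine range is therefore not read. Taken 1 by 1, the 4 tested markers differed by -0.29 to 0.07 for ketamine minus saline. Summed astrocyte markers overlapped between all groups, at 16.24 to 16.54, 16.34 to 16.37 and 16.35 to 16.65. In 2 of the 7 astrocyte markers the groups did not overlap in each comparison with control (18% and 15.8% of all genes). For ketamine minus saline this was 1 of 7 (4.08% of all genes), and 0 passed in any comparison. The part of any of these cell types in the Rnf differences was not tested.

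Rnf115, the close relative of Rnf126 that also works with Bag6, had a different pattern. Its log2 intensity was 11.46, 11.61, 12.04 and 12.27 in control and 11.91, 11.93, 11.83 and 11.85 after betamethasone. With ketamine it was 12.56, 12.61, 11.95 and 11.92. Both control arrays differed from each other, as did both ketamine arrays, while the betamethasone samples lay close together. The differences were 0.03 (betamethasone minus control), 0.38 (ketamine minus saline, limma adjusted p 0.906) and 0.41 (betamethasone with ketamine minus control, limma adjusted p 0.405). Without ketamine samples 1 and 2, ketamine minus saline became 0.06 and the comparison of ketamine with control 0.09 (limma adjusted p 0.902). Without samples 3 and 4 they were 0.70 (limma adjusted p 0.0571) and 0.74, and only the latter passed (limma adjusted p 0.0416).

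The other genes of the Bag6 pathway did not follow Rnf126. Of the 7 tested, 5 were higher and 2 lower after betamethasone and 0 passed, against 0.242% of all genes, with a median of 0.16, while the value table put 0 higher and 6 lower. The largest differences were 0.44 (SE 0.41) for Get3, the targeting ATPase for tail-anchored membrane proteins, and 0.34 (SE 0.21) for Sgta, a co-chaperone that hands proteins over within this route. With ketamine against control 6 were higher and 1 lower, or 3 and 4 with array medians and 1 and 5 in the value table, and 0 passed.

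**Figure D2:**
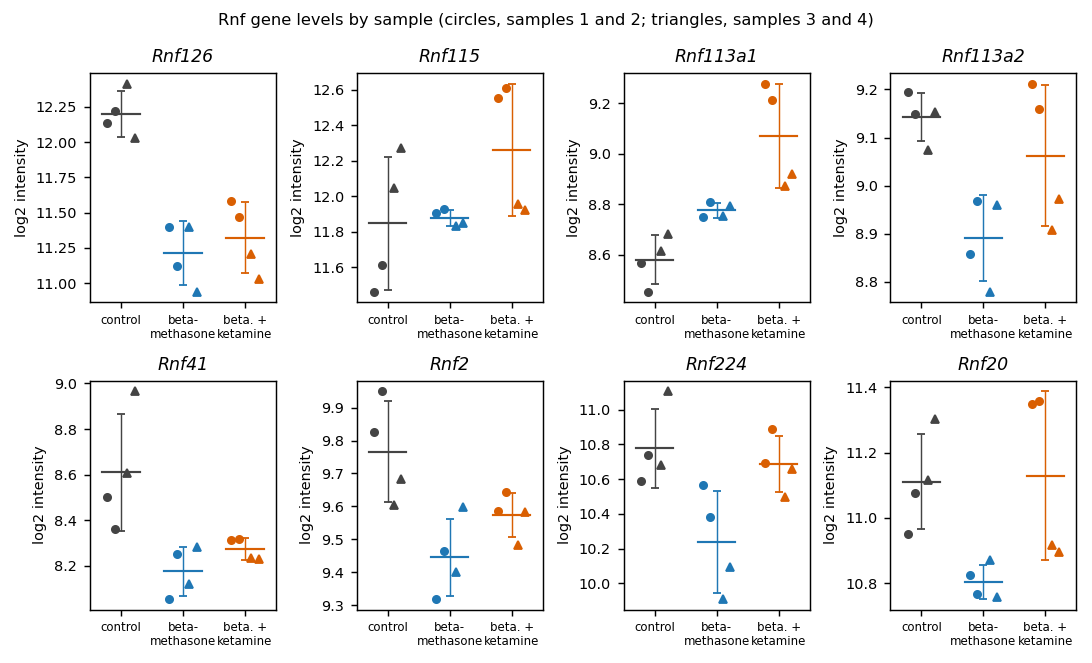
Each point is the log2 intensity of 1 sample, circles for samples 1 and 2 and triangles for samples 3 and 4 of a group, with the group mean and SD as lines, for 8 Rnf genes on separate axes. Control samples of Rnf126 lie between 12.03 and 12.41, above all 8 others, and the circles of the ketamine group lie above its triangles for Rnf115, Rnf113a1 and Rnf20.

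Ligases of chromatin and DNA damage include a subunit of Polycomb and a ligase of histone. Of the 10 tested, 4 had betamethasone and control samples that did not overlap, against 18% of all genes, from which nothing is read. Of the same 10, 7 were lower and 3 higher after betamethasone, with a median of -0.07, and the split was 5 to 5 with array medians. Rnf2, the catalytic subunit of Polycomb repressive complex, was 9.83, 9.95, 9.60 and 9.68 in control and 9.32, 9.46, 9.40 and 9.60 after betamethasone. The lowest control sample and the highest betamethasone sample nearly touched, and the difference was -0.32 (SE 0.10). The ketamine samples, 9.59, 9.64, 9.48 and 9.58, reached into the control range, at -0.19 against control (limma adjusted p 0.396). A second Rnf2 probe was also lower after betamethasone, by -0.56, but its control samples were 8.28, 8.05, 9.12 and 9.45 and split by array.

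Rnf20 and Rnf40 form 1 ligase that ubiquitinates histone in transcribed genes, and their values differed. Rnf20 was 10.95, 11.07, 11.12 and 11.30 in control and 10.82, 10.77, 10.87 and 10.76 after betamethasone, a difference of -0.31 (SE 0.15). The ketamine samples were 11.35, 11.36, 10.92 and 10.89, above all betamethasone samples. Ketamine minus saline for Rnf20 was 0.33 (SE 0.15, limma unadjusted p 0.0474, adjusted p 0.906), and 0.10 without ketamine samples 1 and 2. Without samples 3 and 4 it was 0.55 and passed (limma adjusted p 0.0163). For Rnf40 the same comparison gave -0.23 (SE 0.15), 0.01 without samples 1 and 2 and -0.47 without samples 3 and 4 (limma adjusted p 0.034). Its betamethasone minus control difference was -0.02.

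Rnf113a1, on the X chromosome, and Rnf113a2, a copy on an autosome, encode closely related proteins of the spliceosome that also act in DNA repair. Their probes lie at chrX:7725736-7725795 on the minus strand and chr6:108482142-108482201 on the plus strand (rn4). The sequences are shown because the values of the copies differ, and their longest common run is 5 bases.
Rnf113a1: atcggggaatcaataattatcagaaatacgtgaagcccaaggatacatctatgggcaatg
Rnf113a2: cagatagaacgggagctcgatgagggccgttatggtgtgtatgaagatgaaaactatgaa

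Rnf113a1 was 8.57, 8.45, 8.61 and 8.68 in control, 8.75, 8.81, 8.75 and 8.79 after betamethasone, and 9.28, 9.21, 8.87 and 8.92 with ketamine. No group overlapped another, with control lowest and ketamine highest. The differences were 0.20 for betamethasone minus control, 0.30 for ketamine minus saline (SE 0.12, limma unadjusted p 0.0283, adjusted p 0.906), and 0.49 for betamethasone with ketamine minus control. Ketamine minus saline was 0.12 without ketamine samples 1 and 2 and 0.47 without samples 3 and 4, where it passed (limma adjusted p 0.0119). The difference against control, 1.41-fold, had a 95% interval of 0.23 to 0.75 and did not pass (limma adjusted p 0.172). It was 0.32 without ketamine samples 1 and 2 (limma adjusted p 0.188) and 0.67 without samples 3 and 4, where it passed (limma adjusted p 0.00180).

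Rnf113a2 was 9.19, 9.15, 9.07 and 9.15 in control and 8.86, 8.97, 8.78 and 8.96 after betamethasone, with no overlap and a difference of -0.25 (SE 0.11). The ketamine values of 9.21, 9.16, 8.91 and 8.97 spanned the control and betamethasone values. For this copy ketamine minus saline was 0.17 (SE 0.11, limma adjusted p 0.906), and 0.05 without samples 1 and 2. The difference between the responses of Rnf113a1 and Rnf113a2 was not tested.

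Among the rest of this role, Rnf8 and Rnf168, which mark chromatin at DNA breaks, were at -0.02 and 0.14 for betamethasone minus control. Rnf168 was the 1 gene of 14 with several kept probes whose probes differed in sign and by over 0.5. Its brighter probe, at chr11:70304919-70304978, gave 0.14 and its dimmer one, at chr11:70306456-70306515, gave -0.39 (both minus strand, rn4). Rnf4 and Rnf111, which recognise proteins tagged with SUMO, were at -0.11 and 0.04, and Rnf138, which acts in repair of DNA ends, at -0.12. With ketamine against saline, 8 of the 10 were higher and 2 lower, or 4 and 6 with array medians, at a median of 0.14 beside 0.05 for all genes, and 0 passed. Without samples 1 and 2 the median was 0.04, and without samples 3 and 4 it was 0.23.

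Ligases in the membranes of the endoplasmic reticulum, Golgi and lysosome held the highest Rnf difference after betamethasone and some of the lower ones. Rnf5, which acts in degradation from the endoplasmic reticulum, was 13.00, 12.17, 12.57 and 12.91 in control and 13.06, 13.21, 13.18 and 13.24 after betamethasone. The betamethasone samples lay above all control samples but spread over 0.17, against 0.83 within control, and the difference of 0.51 had an SE of 0.28. With ketamine Rnf5 was 12.71, 12.81, 13.13 and 13.01, inside the range of the control and betamethasone samples, at -0.26 against saline (limma adjusted p 0.915), -0.10 without samples 1 and 2 and -0.41 without samples 3 and 4. Rnf185, its relative in the same pathway, was at 0.21 (betamethasone minus control) and Rnf121, a ligase of the early secretory pathway, also at 0.21.

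Rnf103, a ligase of the endoplasmic reticulum, was 11.23, 11.38, 11.18 and 11.06 in control and 10.77, 10.87, 10.81 and 10.97 after betamethasone, at -0.36 (SE 0.34). Its ketamine values were 11.43, 11.29 and 9.86, with sample 3 left out as an outlier spot. The 2 ketamine arrays lay 1.50 apart, the widest gap of any tested Rnf gene, and ketamine minus saline was -0.15 with both arrays and 0.50 without samples 3 and 4, where it passed (limma adjusted p 0.0305). Rnf170, which degrades the inositol trisphosphate receptor, was at -0.33 (SE 0.16) after betamethasone. Rnf139 and Rnf145, linked to sterol metabolism, were at -0.14 and -0.09, and Rnf152, a lysosomal ligase, at 0.22 (SE 0.33).

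Rnf26, which tethers endosomes near the nucleus, had control values of 12.50 to 12.68 and betamethasone values of 12.62 to 12.71. With ketamine it was 11.80 and 12.07 on 1 array and 12.66 and 12.69 on the other. Ketamine minus saline was -0.35 (SE 0.20, limma adjusted p 0.906), and 0.02 without samples 1 and 2. Without samples 3 and 4 it was -0.72 and passed (limma adjusted p 0.00487). Over the 10 tested ligases of these membranes, 5 were higher and 5 lower after betamethasone, and 4 were higher and 6 lower with ketamine against saline, where 0 passed. Without samples 3 and 4 these counts were 7 and 3.

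The ligases with a protease-associated domain sit mainly in endosomes. Of the 6 tested, 4 were lower and 2 higher after betamethasone, and in 3 the groups did not overlap, against 18% of all genes, from which nothing is read. One of the 6, Rnf130, is named LOC652955 in the scanner files and so is not among the 72. It was at 0.11 with no overlap. Rnf13, linked to stress of the endoplasmic reticulum, was 11.20, 11.39, 11.15 and 11.17 in control and 10.88, 11.05, 10.79 and 10.95 after betamethasone, at -0.31 (SE 0.19). With ketamine it was 11.72, 11.55, 10.93 and 10.95, 0.37 above saline (limma adjusted p 0.906), 0.02 without samples 1 and 2 and 0.72 without samples 3 and 4, where it passed (limma adjusted p 0.00574). Rnf149 was at -0.35 (SE 0.16) after betamethasone with no overlap, while its dimmer probe was at 0.04. Rnf128, known as a regulator of T cell anergy, was at -0.09, and Rnf150 also at -0.09.

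Rnf167 is an endosomal ligase that acts on AMPA glutamate receptors. It was 12.69, 12.36, 12.82 and 12.51 in control, 12.91, 12.66, 12.91 and 12.60 after betamethasone, and 13.35, 13.17, 12.81 and 12.69 with ketamine. All 3 groups overlapped. Betamethasone with ketamine minus control was 0.41 (SE 0.14, limma unadjusted p 0.016, adjusted p 0.302), falling to 0.15 without ketamine samples 1 and 2, and 0.67 without samples 3 and 4, where it passed (limma adjusted p 0.00130). All 6 tested ligases of this group were higher with ketamine than with saline, at a median of 0.19, but 5 were lower with array medians, 5 also without ketamine samples 1 and 2, and 0 passed.

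The RING-between-RING ligases pass ubiquitin through a cysteine of their own before it reaches the substrate. Of the 8 tested, 5 were higher and 3 lower after betamethasone, with a median of 0.06, or 0 and 7 in the value table. Rnf144a was 8.92, 8.70, 8.85 and 8.82 in control, 9.21, 9.10, 9.31 and 9.04 after betamethasone and 9.03, 9.04, 8.96 and 9.21 with ketamine. Control lay below both other groups, at 0.34 (SE 0.14) for betamethasone and 0.24 (SE 0.14, limma adjusted p 0.454) for betamethasone with ketamine. Leaving out either ketamine array gave 0.26 and 0.21. Its relative Rnf144b was at 0.17 and 0.21.

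Rnf216, which acts on the synaptic protein Arc, was 10.43, 9.998, 10.96 and 11.20 in control, 10.92 to 11.04 after betamethasone and 10.93 to 11.30 with ketamine. The control arrays lay 0.87 apart, so that its differences of 0.33 and 0.47 against control had an SE of 0.26. The latter was 0.33 without ketamine samples 1 and 2 and 0.60 without samples 3 and 4. A dimmer Rnf216 probe gave 0.06 and 0.03. Rnf31, the catalytic subunit of the complex that builds linear ubiquitin chains, was at 0.10, Rnf19a at -0.09, Rnf19b at -0.09, Rnf217 at 0.02 and Rnf14 at -0.05 after betamethasone.

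**Figure D3:**
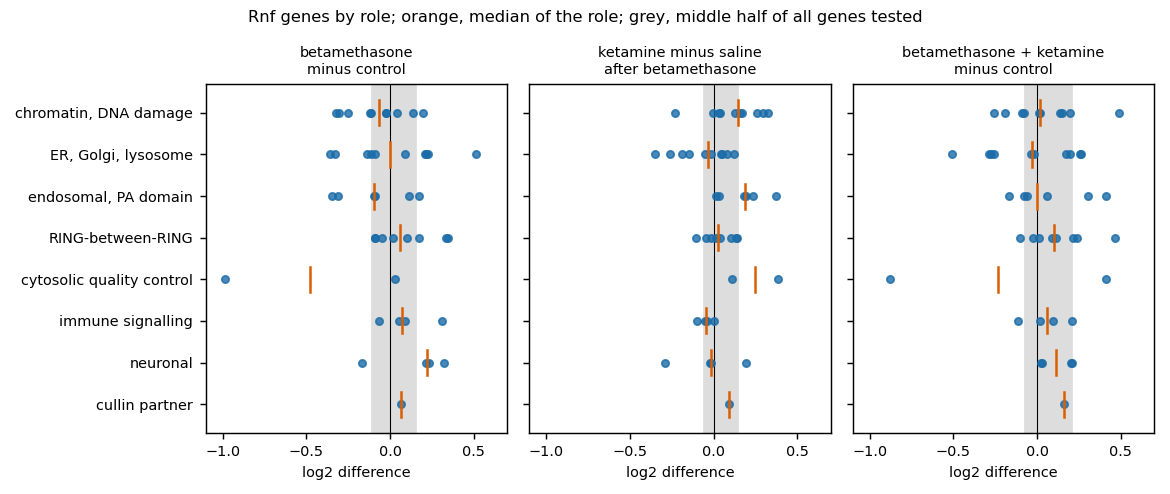
Points are the log2 differences of tested Rnf genes by role in each comparison, orange bars the median of a role and the grey band the interquartile range of all genes tested. The chromatin ligases run from -0.32 to 0.20 after betamethasone, and the cytosolic pair is Rnf126 at -0.98 and Rnf115 at 0.03.

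Of the ligases of immune signalling 3 of 4 were higher after betamethasone, a count that was 1 of 4 with array medians or a 75th percentile of background-corrected signals. Of those of neurons 3 of 4 were higher, and 0 in the value table. Rnf114, an interferon-related ligase, was 13.29, 13.21, 13.09 and 12.90 in control and 13.45, 13.51, 13.40 and 13.36 after betamethasone, at 0.31 (SE 0.12) with no overlap. Rnf125 and Rnf135, which act on the RNA sensor RIG-I, were at 0.05 and 0.09, and Rnf213 at -0.06. Rnf135 was well above background in only 1 control and 2 betamethasone samples, so its difference is uncertain. Rnf182, a brain-enriched ligase, was 8.36, 8.39, 8.51 and 8.60 in control and 8.74, 8.82, 8.82 and 8.75 after betamethasone, at 0.32 (SE 0.15) with no overlap. With ketamine it was 8.20 and 8.22 on 1 array and 8.79 and 8.75 on the other, and ketamine minus saline was -0.29 (limma adjusted p 0.906), -0.01 without samples 1 and 2 and -0.57 without samples 3 and 4, where it passed (limma adjusted p 0.00481).

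Rnf112, a brain ligase with a GTPase domain, was at 0.23 (SE 0.11) for betamethasone minus control and 0.21 (limma adjusted p 0.394) for betamethasone with ketamine, or 0.12 without samples 3 and 4. Rnf6, which acts in growth cones, was at -0.17, and Rnf7, the RING partner of cullin ligases, at 0.07 for betamethasone minus control.

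Outside these roles, Rnf224, a little-studied family member, was 10.59, 10.74, 10.68 and 11.11 in control and 10.57, 10.38, 9.91 and 10.09 after betamethasone. The groups nearly met, and the difference was -0.54 (SE 0.19). Ketamine values were 10.69, 10.89, 10.50 and 10.66, which overlapped both other groups, at 0.45 over saline (SE 0.19, limma unadjusted p 0.0374, adjusted p 0.906) and 0.34 without samples 1 and 2. Rnf41, which degrades the receptor ErbB3, was 8.50, 8.36, 8.61 and 8.97 in control, 8.05, 8.25, 8.12 and 8.28 after betamethasone and 8.32, 8.32, 8.24 and 8.23 with ketamine. Control lay above both other groups, at -0.43 (SE 0.16) for betamethasone and -0.33 for betamethasone with ketamine (limma adjusted p 0.365).

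Rnf123, which degrades a cell cycle inhibitor, was at 0.35 (SE 0.20) after betamethasone, and Rnf181 at 0.29 (SE 0.16). With ketamine against control they were at 0.31 and 0.32 (limma adjusted p 0.489 and 0.382). Rnf25 was at 0.27 and Rnf215 at 0.32 in that comparison, with limma adjusted p of 0.427 and 0.398. Leaving out ketamine samples 1 and 2 gave 0.21 for Rnf123, 0.15 for Rnf181, 0.44 for Rnf25 and 0.15 for Rnf215. Leaving out samples 3 and 4 gave 0.41, 0.49, 0.10 and 0.50, and Rnf181 passed there (limma adjusted p 0.0399). Another 13 tested genes, Obi1, Rnf11, Rnf32, Rnf34, Rnf39, Rnf146, Rnf151, Rnf180, Rnf183, Rnf187, Rnf207, Rnf208 and Rnf222, lay between -0.12 and 0.22 for betamethasone minus control, between -0.09 and 0.21 for ketamine minus saline and between -0.11 and 0.25 for betamethasone with ketamine minus control. Their groups overlapped in all 3 comparisons. Without ketamine samples 1 and 2 these 13 lay between -0.14 and 0.02 against saline and between -0.18 and 0.08 against control. Rnf146 was then at -0.01 against saline. Without samples 3 and 4 the 13 lay between -0.17 and 0.43 against saline and between -0.20 and 0.41 against control. Rnf208 passed there in both comparisons (limma adjusted p 0.0167 and 0.00861), and Rnf39 passed against control (limma adjusted p 0.0312).

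The choice of genes did not use the difference of ketamine against saline, but the saline group there is the betamethasone group, which the choice did use. In this comparison 0 of the 63 Rnf genes passed in limma, as did 0 of all genes tested (0%). An unadjusted p under 0.05 was reached by 3 Rnf genes, Rnf113a1, Rnf20 and Rnf224, all higher, against 3.24% of all genes, and a fit without the array block called 0 Rnf genes and 1 gene in all. In 2 Rnf genes, Rnf113a1 and Rnf20, the groups did not overlap, against 4.08% of all genes, and both were higher (2.76% of all genes, with 1.32% lower). The median difference was 0.04 for the Rnf genes and 0.05 for all genes, with 43 Rnf genes higher and 20 lower (62.9% of all genes were higher), or 19 and 44 with array medians, where the median of all genes was -0.10. Without ketamine samples 1 and 2 the Rnf median was -0.01 and without samples 3 and 4 it was 0.14. Without samples 3 and 4 the fit called 9 Rnf genes and 2286 genes in all, with Rnf13, Rnf20, Rnf103, Rnf113a1, Rnf167 and Rnf208 higher and Rnf26, Rnf40 and Rnf182 lower. Without samples 1 and 2 it called 0 Rnf genes and 26 genes in all. Nothing about the Rnf genes is read from these counts.

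In betamethasone with ketamine minus control, limma called 17 genes (0.0914%) and 0 Rnf genes, and 3 Rnf genes had an unadjusted p under 0.05 (Rnf126, Rnf113a1 and Rnf167), against 14.1% of all genes. The groups did not overlap in 5 Rnf genes, among them Rnf126 and Rnf41 lower and Rnf113a1 and Rnf144a higher, against 15.8% of all genes (12% higher and 3.73% lower). The median was 0.07 for the Rnf genes and for all genes, with 40 Rnf genes higher and 23 lower (63.8% of all genes were higher), or 31 and 32 with array medians and 1 and 55 in the value table. Without ketamine samples 3 and 4 limma called 10 Rnf genes of 3082 genes in all, and without samples 1 and 2 it called 1, Rnf126, of 101. Nothing about the Rnf genes is read from these counts, since the control samples also served to choose the set.

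The distance between the 2 arrays of a group differed between groups. In the ketamine group 8 Rnf genes (12.7%) had array means over 0.5 apart, against 12.1% of all genes. In control it was 3 (4.76%, against 10.7%), and after betamethasone 0 (0%, against 2.59%). The widest gaps in the ketamine group were 1.50 for Rnf103, -0.73 for Rnf26, 0.70 for Rnf13 and 0.65 for Rnf115 (samples 1 and 2 minus samples 3 and 4). For Rnf103 sample 3 was left out as an outlier spot, so its gap is taken to sample 4 alone. In control the widest gaps were -0.87 for Rnf216, -0.62 for Rnf115 and 0.59 for Rnf14. A damaged patch held 3.49% of spots and 0 Rnf probes on the array with ketamine samples 1 and 2.

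**Figure D4:**
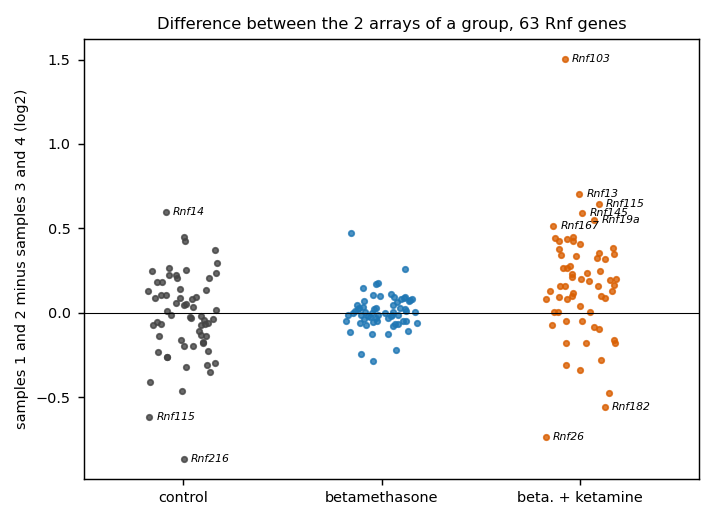
Each point is 1 of the 63 tested Rnf genes, placed by the log2 difference between the means of the 2 arrays of its group (samples 1 and 2 minus samples 3 and 4). The ketamine points spread from -0.73 for Rnf26 to 1.50 for Rnf103, and no betamethasone point is over 0.5 from 0. For Rnf103 with ketamine, sample 4 alone stands for samples 3 and 4.

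Of the enzymes upstream of the Rnf ligases, 0 passed in any comparison. Of ubiquitin and the E1 enzymes 11 of 12 were lower after betamethasone, with a median of -0.05, but only 4 with processed signals, 3 with array medians and 6 with a 75th percentile of background-corrected signals. The difference for Uba2, which activates SUMO, was -0.32 (SE 0.12). With ketamine against saline 8 of the 12 were higher and 4 lower, from -1.27 to 0.57, with the array of ketamine samples 1 and 2 included.

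Of the 30 tested E2 enzymes, 19 were higher and 11 lower after betamethasone, or 2 and 27 in the value table. The largest differences were -0.65 (SE 0.17) for Ube2d1, a common partner of RING ligases, and 0.60 (SE 0.22) for Ube2r2, a partner of cullin ligases. In 10 of the 30 the groups did not overlap, against 18% of all genes, and 6 had an unadjusted p under 0.05 in limma, against 11.6% of all genes. With ketamine against control 18 were higher and 12 lower, from -1.15 to 0.59. In that comparison 11 had an unadjusted p under 0.05 in limma, against 14.1% of all genes, and 0 passed. Against saline the E2 differences ran from -0.92 to 0.42, and 0 had an unadjusted p under 0.05 in limma. These ketamine values include samples 1 and 2, whose array stood apart.

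The cullin-RING core, the other large class of RING ligases, was higher in 9 of 14 genes after betamethasone, in 12 of 14 with ketamine against saline and in 13 of 14 with ketamine against control, and 0 passed. The value table had 0, 11 and 1 of them higher, and array medians 12, 1 and 10. Without ketamine samples 1 and 2 the counts with ketamine were 11 against saline and 8 against control. The largest differences after betamethasone were 0.36 (SE 0.30) for Eloc, an adaptor, and 0.33 (SE 0.28) for Ddb1. Of 17 known partners of single Rnf proteins, 11 were higher and 6 lower after betamethasone, with a median of 0.02, or 4 and 13 with a 75th percentile of background-corrected signals. Among them Cbx2 and Ring1, which work with Rnf2 in Polycomb complexes, were at -0.27 (SE 0.19) and 0.25 (SE 0.17).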

How the data were processed

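Per the file headers, each deposited scanner file held intensity values of 1 array (mean signal and median local background for Cy3 and Cy5) from Feature Extraction 11.5.1.1 (control slide) or 11.0.1.1 (other slide), and the submitters' processing notes name 10.7.3.1. The deposited quality columns were flags, and the deposited value table held a ratio to each sample's median. In that table the columns of control samples 1 and 2 matched the scanner data of control samples 3 and 4 and the reverse, so it served only as an alternative.

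Each sample was read in its own dye channel. Signals were corrected by normexp (offset 50), normalized by loess within and Aquantile between arrays, and given as log2 intensity. Spots flagged as outliers were left out. A probe was kept if 3 or 4 samples of any group were well above background and every group had 3 values or more, and the brightest kept probe of a gene was tested. Probes were named from RefSeq accessions (18406), symbols (3005) or synonyms (490), and 8466 kept the file name; for Rnf probes these were 74 by accession and 15 by symbol. Groups were compared with limma 3.58.1 (R 4.3.3) on all 12 samples, with a dye term, the array as a random block (correlation 0.563), and Benjamini-Hochberg adjustment over 18599 genes at 0.05. The fit was tested on simulated data.

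Named Rnf genes are Rnf126 and Rnf115, the 8 largest differences each way per comparison, the members of role lists, and genes whose probes disagreed in sign and by over 0.5, and for other lists mainly the 2 largest differences. Per the labels the replicates are biological. The Rnf genes and lists were chosen with earlier results of these data known. A few genes are not reported here by name; they stay in the fits and in the counts of lists.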

Additional observations from a re-analysis of the deposited data

Results flagged for a closer look

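In 3 of 182 groups of 4 samples of a tested Rnf gene (1.65%), 1 sample lay far from the others by Dixon's test. Among independent values this test flags about 1 group in 20 by chance. Samples of a group share arrays in pairs, so that rate is no reference here, and a split between the arrays is not flagged. Rnf146, which recognises poly-ADP-ribose, was lowest in control sample 4, at 12.18, with the nearest other at 12.67. Rnf150 was highest in ketamine sample 2, at 10.24, beside 10.04. Rnf19b was highest in betamethasone sample 4, at 7.59, beside 7.49.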

How the results depend on the processing

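For betamethasone minus control, limma called 45 genes and 0 Rnf genes in the reported setting. Counts under other settings are a description, since this comparison chose the set. Limma called 1 Rnf gene with processed signals scaled to the 75th percentile (84 genes), with no filter on dim probes (77), with damaged areas masked (55), with only the 2 groups compared (241), and without the array of control samples 1 and 2 (260), of ketamine samples 1 and 2 (489) or of ketamine samples 3 and 4 (411). With no array block it called 3 (973 genes), and 25 with the deposited value table, where 6503 genes were called and the median of all genes was -0.55. Both other scalings called 0 genes, array means as replicates 3 genes, and probes well above background in all samples 29. Leaving out 1 sample gave 0 to 1 Rnf genes and 3 to 71 genes.

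For betamethasone with ketamine minus control (17 genes, 0 Rnf genes), 2 Rnf genes were called with processed signals (193 genes) and with no array block (766). The value table gave 21 (4800 genes). It was 1 without the array of ketamine samples 1 and 2 (101 genes) and 10 without that of samples 3 and 4 (3082 genes). Leaving out 1 sample gave 0 Rnf genes and 5 to 27 genes. For ketamine minus saline, 9 Rnf genes were called only without the array of ketamine samples 3 and 4 (2286 genes), where Rnf103 turned from -0.15 to 0.50. The causes of these shifts were not tested.

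Same-numbered samples of different groups were not treated as pairs. Their deviations correlated at -0.059 to 0.096, which cannot show whether animals shared a litter, since litters are not named. With the replicate number as a block, limma called 706, 0 and 457 genes in the 3 comparisons (betamethasone minus control, ketamine minus saline, betamethasone with ketamine minus control) and 1, 0 and 2 Rnf genes, in the last Rnf126 and Rnf113a1.

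The median Rnf difference moved with the scaling: for betamethasone minus control from -0.53 (value table) to 0.19 (array medians of A), and for ketamine minus saline from -0.25 to 0.18. All 56 Rnf genes that the value table covers were below 0 there after betamethasone. The slide shared by all controls, the 2 arrays per group and 1 probe for most genes limit what these data can show.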
